A study of Mus musculus with 8 samples.

Results

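The genes described here carry iron into hepatocytes, store it, export it, sense it, and build or break down heme. They are Tfrc, Trf, Slc11a2, Fth1, Slc40a1, Hamp, Tfr2, Hfe, Alas1 and Hmox1, 10 genes chosen by name among the 22180 genes of the array, of which 9 could be measured. Each gene was read from the probe set that the platform annotation gives to that gene alone, and each of the 9 had 1 such probe set. Trf, which encodes transferrin, the iron carrier of plasma, was found only in a probe set annotated to Trf and Srprb together, so no value is given for it. The cells were AML12, a line of mouse hepatocytes, in 2 groups of 4 cultures each: VWA8-null cells, in which the Vwa8 gene was deleted with CRISPR/Cas9, and wild-type AML12 cells. Vwa8 encodes a mitochondrial protein with an ATPase domain. According to the design text, separate cultures of each genotype were differentiated before RNA was taken, so the comparison asks which transcripts differ with loss of the gene. Both groups grew in the same medium, which held transferrin at 0.005 mg/ml, insulin at 0.005 mg/ml, selenium at 5 ng/ml, dexamethasone (a synthetic glucocorticoid) at 40 ng/ml and 10% serum. The number of VWA8-null clones is not stated in the labels, and what the deletion does cannot be told apart from what sets a clone off from its parent line. In bulk RNA of a culture, fewer cells expressing a gene and less RNA per cell cannot be told apart either.

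Iron enters hepatocytes bound to transferrin through transferrin receptors, is released from endosomes by reduction and transport, and is kept inside ferritin or exported by ferroportin, the only known iron exporter of mammalian cells. The liver also sets iron supply for the whole body: hepatocytes secrete hepcidin, a peptide hormone that blocks ferroportin, and they adjust it through a membrane complex of hemojuvelin, HFE, transferrin receptor 2 and BMP receptors that signals through SMAD proteins. Iron regulatory proteins bind stem-loops in the transcripts of Tfrc, Fth1, Slc40a1 and some forms of Slc11a2, so that transcript levels report only a part of their control. Heme, the iron porphyrin of cytochromes, is made in steps that start with ALAS1 and end with ferrochelatase, and heme oxygenase opens the ring and frees the iron.

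Values are log2 signals, 1 per gene and array, where a difference of 1 means a doubling. Array medians lay between 4.27 and 4.33, and 4 arrays per group limit the precision of every value. Vwa8 itself read between 5.07 and 5.33 on the VWA8-null arrays and between 8.91 and 9.01 on the wild-type arrays, a log2 fold change of -3.77 ± 0.070 (SE; limma adjusted p = 4.84e-08). All 6 hepatocyte markers examined (Alb, Ttr, Apoa1, Hnf4a, Serpina1a, Cps1) lay above the array median and all 6 rose in VWA8-null cells, as did 10.4% of all genes. Their mean per array ran from 10.78 to 10.90 in VWA8-null cells, against 10.06 to 10.17 in wild-type cells. The rises were unequal, with log2 fold changes from 0.23 for Alb to 1.94 for Cps1. The part of this shift in the results below was not tested. Of 7 macrophage, 5 stellate cell, 5 endothelial and 2 erythroid markers measured, none passed the test, and their means lay between 3.41 and 4.26 on all arrays. Of 4 cholangiocyte markers, Krt7 fell by 0.52, at an adjusted p of 0.00220, and the other 3 did not pass.

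Of the 9 measured genes, Tfr2 rose, Slc40a1 and Hmox1 fell, and 6 did not pass a limma adjusted p of 0.05. Over all 22180 genes 20.9% passed, 10.4% as rises and 10.4% as falls, so the 3 of 9 genes (33.3%) stand against a broad difference between the lines. The fold was 1.35 for Tfr2, 1.20 for Slc40a1 and 1.35 for Hmox1. The median log2 fold change of the 9 genes was -0.039, and that of all genes was -0.003.

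**Figure D1:**
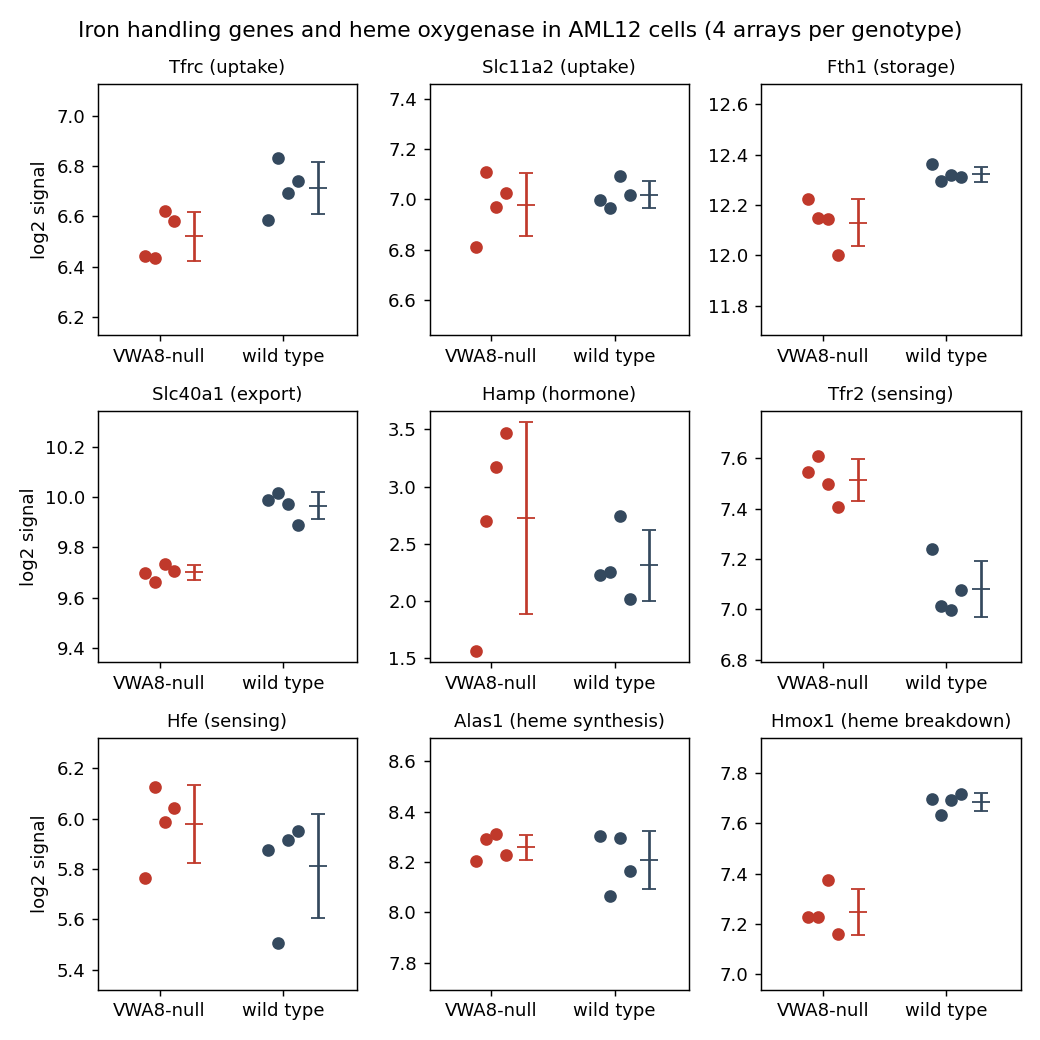
Log2 signal of the 9 measured genes on each array, VWA8-null on the left and wild type on the right of each panel, with the mean ± SD of 4 arrays beside the points; each panel has its own vertical scale. The groups are apart for Tfr2, Slc40a1, Hmox1 and Fth1, as they are for 26.1% of all genes, and overlap for the other 5 genes.

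Tfrc encodes transferrin receptor 1, the main route of transferrin-bound iron into most cells. It read 6.44, 6.43, 6.62 and 6.58 in the 4 VWA8-null cultures and 6.59, 6.83, 6.69 and 6.74 in the 4 wild-type cultures. The lowest wild-type array lay among the VWA8-null arrays, so the groups overlapped. The means were 6.52 ± 0.096 in VWA8-null cells and 6.71 ± 0.102 in wild-type cells (SD, n = 4 each), a log2 fold change of -0.19 ± 0.075 (SE; 95% interval -0.36 to -0.02). It missed the threshold at a limma adjusted p of 0.113, and passed at 0.0431 when the dimmest 50% of probe sets were left out of the test.

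Slc11a2 encodes DMT1, the transporter that moves ferrous iron out of the endosome. Its probe set does not separate the transcript forms with and without the iron-responsive stem-loop. The VWA8-null arrays read 6.81, 7.11, 6.97 and 7.03, and the wild-type arrays 6.996, 6.96, 7.09 and 7.02. The wild-type values fell inside the range of the VWA8-null values. The difference was -0.04 ± 0.074 (SE; 95% interval -0.21 to 0.13; limma adjusted p = 0.784).

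Fth1 encodes the heavy chain of ferritin, which oxidises iron as it is stored. It read 12.22, 12.15, 12.14 and 12.001 in VWA8-null cells and 12.36, 12.29, 12.32 and 12.31 in wild-type cells. Every VWA8-null array lay below every wild-type array, as was the case for 13.2% of all genes (26.1% had no overlap in either direction). The log2 fold change was -0.19 ± 0.062 (SE; 95% interval -0.34 to -0.05) and missed the threshold at a limma adjusted p of 0.0594. It passed at 0.00104 with an intensity trend and robust variances, at 0.0371 without the dimmest 25% and at 0.0169 without the dimmest 50% of probe sets. The signal is close to the highest value on the arrays, 13.55, where differences can be compressed, and the mouse genome holds Fth1 pseudogenes whose transcripts could share its probes. The light chain, Ftl1, was found only in probe sets annotated to several genes.

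Slc40a1 encodes ferroportin, the exporter. It read 9.70, 9.66, 9.73 and 9.70 in VWA8-null cells and 9.99, 10.02, 9.97 and 9.89 in wild-type cells. The groups were apart with VWA8-null cells lower, as was the case for 13.2% of all genes, and the 4 VWA8-null arrays lay within a narrow range. The means were 9.70 ± 0.029 in VWA8-null cells and 9.97 ± 0.055 in wild-type cells (SD, n = 4 each), a log2 fold change of -0.27 ± 0.054 (SE; 95% interval -0.39 to -0.14; limma adjusted p = 0.00760).

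Slc40a1 lies in a stretch of chromosome 1 where most genes were higher in VWA8-null cells. Among the 60 nearest genes of above-median signal on chromosome 1, 30 on each side, 51 had a log2 fold change above 0, 42 rose and 3 fell. Their median log2 fold change was 0.37, and only 3 of the 60 lay below Slc40a1. The rises were not spread evenly: on one side they began with the nearest gene, while on the other none of the nearest 7 genes rose, and all but Slc39a10 of these lay between -0.17 and 0.13. The median therefore does not describe the genes directly beside Slc40a1 on that side. Subtracting that median left Slc40a1 at -0.64 (limma adjusted p = 5.91e-05). The median was subtracted as a fixed value, so this p leaves out the error of the median itself. The 3 genes that fell were Slc39a10, a zinc transporter and the next of these genes along the chromosome, at -1.27, Fhl2 at -1.01 and Map4k4 at -0.17, all named after their values were seen. For the other 8 genes measured here the median of the neighbours lay between -0.15 and 0.09.

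**Figure D2:**
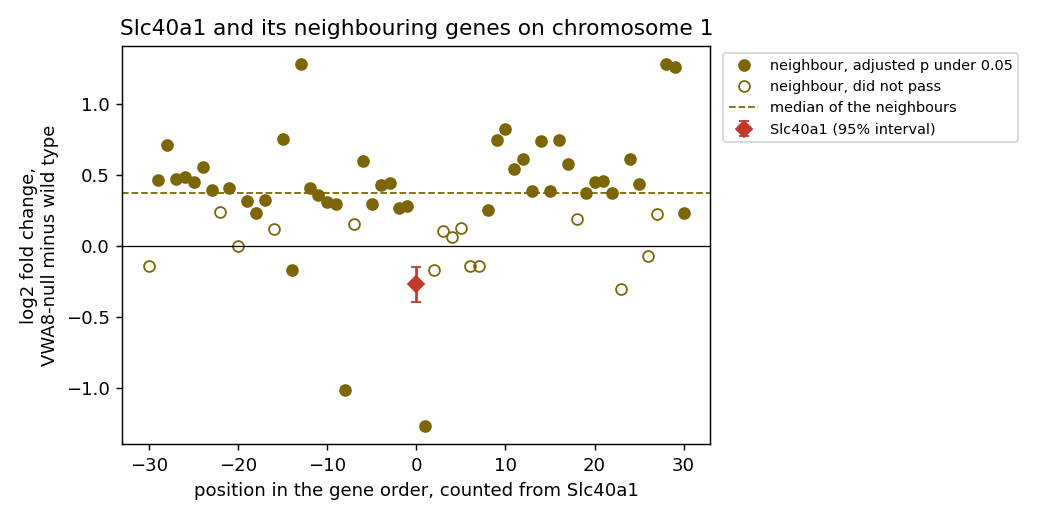
Log2 fold change, VWA8-null minus wild type, of Slc40a1 (diamond, with its 95% interval) and of the 30 nearest genes of above-median signal on each side of it, in their order along chromosome 1. Most neighbours lie above 0, with a median of 0.37 (dashed line), except the nearest 7 on the right, none of which rose; Slc40a1 lies at -0.27.

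Uptake, storage and export were set side by side as ratios within each array, which cancel any shift shared by a whole array. From 5 ratios, none passed an adjusted p of 0.05 in exact permutation tests over the 70 arrangements of the arrays, two-sided, and 0.0286 is the smallest unadjusted p that 4 against 4 arrays allow. With 5 ratios adjusted together, a ratio can pass only if at least 3 of them reach that smallest p. Only Tfr2 to Tfrc and Hmox1 to Alas1 reached it, so neither could pass, however large its difference. The log2 ratio of Slc40a1 to Tfrc differed by -0.07 ± 0.068 (SE) between VWA8-null and wild-type cells (exact p = 0.343, adjusted 0.343), and that of Slc40a1 to Fth1 by -0.07 ± 0.058 (exact p = 0.257, adjusted 0.321). The 3 genes Tfrc, Fth1 and Slc40a1 thus had log2 fold changes between -0.27 and -0.19, and no unequal change between the exporter and either of the others was detectable with 4 arrays. The ratio of Slc11a2 to Slc40a1 differed by 0.23 ± 0.083 (exact p = 0.0857, adjusted 0.143). The ratio of Tfr2 to Tfrc differed by 0.62 ± 0.132, with no overlap of the groups (exact p = 0.0286, adjusted 0.0714).

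Hamp encodes hepcidin. Its signal was dim on every array, at 1.56, 2.70, 3.17 and 3.47 in VWA8-null cells and 2.23, 2.26, 2.74 and 2.02 in wild-type cells, all below the lowest array median of 4.27. The VWA8-null arrays held both the lowest and the 2 highest values. A signal so dim cannot be told from no expression. The difference of 0.41 ± 0.372 (SE; 95% interval -0.43 to 1.26) did not pass (limma adjusted p = 0.524). Without VWA8-null replicate 1, the lowest array, it was 0.80 at an adjusted p of 0.0397, so this call rests on that array. Hamp2, a second mouse gene of nearly the same sequence, read between 3.04 and 3.59 on the 8 arrays and stood at -0.01 ± 0.120 (adjusted p = 0.983). Signal can be shared between probes of such close copies, so both values are uncertain.

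The promoters of the pair are shown because hepcidin is the endpoint of the BMP and SMAD signalling described next. Each window runs from 250 bases before to 50 bases after the annotated start, 5′ to 3′ on the minus strand of build GRCm38.p6, from RefSeq. Capitals mark the BMP-responsive core GGCGCC and the STAT-type site TTCNNNGAA, through which BMP and interleukin 6 signals are known to reach the Hamp promoter.
Hamp, chr7:30943980-30944279: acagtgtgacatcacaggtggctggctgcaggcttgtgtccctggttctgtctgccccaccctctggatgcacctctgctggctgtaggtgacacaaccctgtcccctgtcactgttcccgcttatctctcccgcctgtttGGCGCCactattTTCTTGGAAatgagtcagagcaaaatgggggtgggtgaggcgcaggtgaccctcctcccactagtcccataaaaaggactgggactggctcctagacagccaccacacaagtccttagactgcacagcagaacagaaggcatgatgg
Hamp2, chr7:30924132-30924431: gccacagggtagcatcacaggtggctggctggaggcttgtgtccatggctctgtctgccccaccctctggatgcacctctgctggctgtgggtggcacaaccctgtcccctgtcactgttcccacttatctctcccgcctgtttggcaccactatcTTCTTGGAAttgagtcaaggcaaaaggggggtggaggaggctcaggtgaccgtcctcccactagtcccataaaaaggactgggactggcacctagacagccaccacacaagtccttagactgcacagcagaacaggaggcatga
Of 297 aligned positions 276 were identical (92.9%). The letters TTCNNNGAA stood in both windows, at 97 bases before the start in Hamp and 94 in Hamp2. The letters GGCGCC were found in the Hamp window, 109 bases before the start, and not in the Hamp2 window. Over all 32851 promoter windows of this length, 11.9% held GGCGCC and 8.30% held TTCNNNGAA, on either strand. A search for CACGTG, TGACNNNGC and TGAGNNNGC found none of them in either window, and the core letters of the iron-responsive stem-loop occurred on the opposite strand of Hamp only, as it does on either strand of 19.6% of windows. These are matches of letters, and no factor binding was measured.

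Tfr2 and Hfe act upstream of hepcidin. Tfr2 encodes transferrin receptor 2, a liver receptor that senses iron-loaded transferrin. The arrays read 7.54, 7.61, 7.50 and 7.41 in VWA8-null cells and 7.24, 7.01, 6.997 and 7.08 in wild-type cells. All 4 VWA8-null arrays lay above all 4 wild-type arrays, as was the case for 12.9% of all genes. The means were 7.51 ± 0.084 in VWA8-null cells and 7.08 ± 0.112 in wild-type cells (SD, n = 4 each), a log2 fold change of 0.43 ± 0.075 (SE; 95% interval 0.26 to 0.60; limma adjusted p = 0.00325).

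Hfe encodes the membrane protein that binds transferrin receptor 1 and is mutated in hereditary hemochromatosis. It read 5.76, 6.13, 5.99 and 6.04 in VWA8-null cells and 5.87, 5.51, 5.92 and 5.95 in wild-type cells. The groups overlapped, and wild-type replicate 2 stood below the other arrays. The difference of 0.17 ± 0.117 (SE; 95% interval -0.10 to 0.43) did not pass (limma adjusted p = 0.393).

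Within a list of 24 measured genes of hepcidin and its signalling, 5 rose, 4 fell and 15 did not pass, with a median of -0.01. The share that passed was 37.5%, against 20.9% of all genes, dim ones included. The genes that rose besides Tfr2 encode membrane proteins, as do others of the list that did not pass. Hjv, which encodes hemojuvelin, the BMP co-receptor of hepatocytes, averaged 4.76 ± 0.129 in VWA8-null cells and 4.17 ± 0.077 in wild-type cells (SD, n = 4 each), a log2 fold change of 0.59 ± 0.078. All 4 wild-type arrays, at 4.08 to 4.24, lay below the lowest array median of 4.27, so expression there cannot be told from none. The receptors Acvr1 and Acvr2a rose by 0.47 ± 0.070 and 0.31 ± 0.065 and Bmpr2 by 0.36 ± 0.058 (limma adjusted p of 0.00146, 0.00863 and 0.00223). Their neighbours on chromosomes 1 and 2 were shifted up as well, and after subtracting the neighbours' median Acvr1 stood at 0.30 (adjusted p = 0.0154), Acvr2a at 0.16 (adjusted p = 0.118) and Bmpr2 at 0.00 (adjusted p = 0.974). The same step left Hjv, on chromosome 3, at 0.40 (adjusted p = 0.00676). The receptors did not rise as a class. Acvr2b stood at -0.34 ± 0.121 and Bmpr1a at -0.12 ± 0.063, and neither passed (limma adjusted p of 0.0843 and 0.257).

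The 4 genes of this list that fell, Smad6, Smad7, Id1 and Atoh8, are each known as targets that BMP signalling turns on. Acvr2a, Acvr2b, Bmpr1a and Atoh8 were named after their values were seen. Smad6, an inhibitory SMAD, read 4.65, 4.64, 4.82 and 4.95 in VWA8-null cells and 5.29, 5.42, 5.57 and 5.62 in wild-type cells, a log2 fold change of -0.71 ± 0.101. Id1, an inhibitor of DNA binding, read 5.59, 5.47, 5.61 and 5.66 in VWA8-null cells and 6.29, 5.91, 5.81 and 6.08 in wild-type cells, at -0.44 ± 0.104. Neither gene's groups overlapped, and 13.2% of all genes had every VWA8-null array below every wild-type array. Smad7 stood at -0.38 ± 0.078 and Atoh8 at -0.48 ± 0.119, and limma adjusted p-values of the 4 genes ran from 0.00104 to 0.0188. The call of Atoh8 was lost without VWA8-null replicate 2 and without wild-type replicate 4, at adjusted p of 0.0537 and 0.0518. Tmprss6, the protease that cleaves hemojuvelin, was at 0.26 ± 0.116 (adjusted p = 0.171), and Bmp6, the ligand that liver endothelial cells supply, was dim and at 0.03 ± 0.092 (adjusted p = 0.873).

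**Figure D3:**
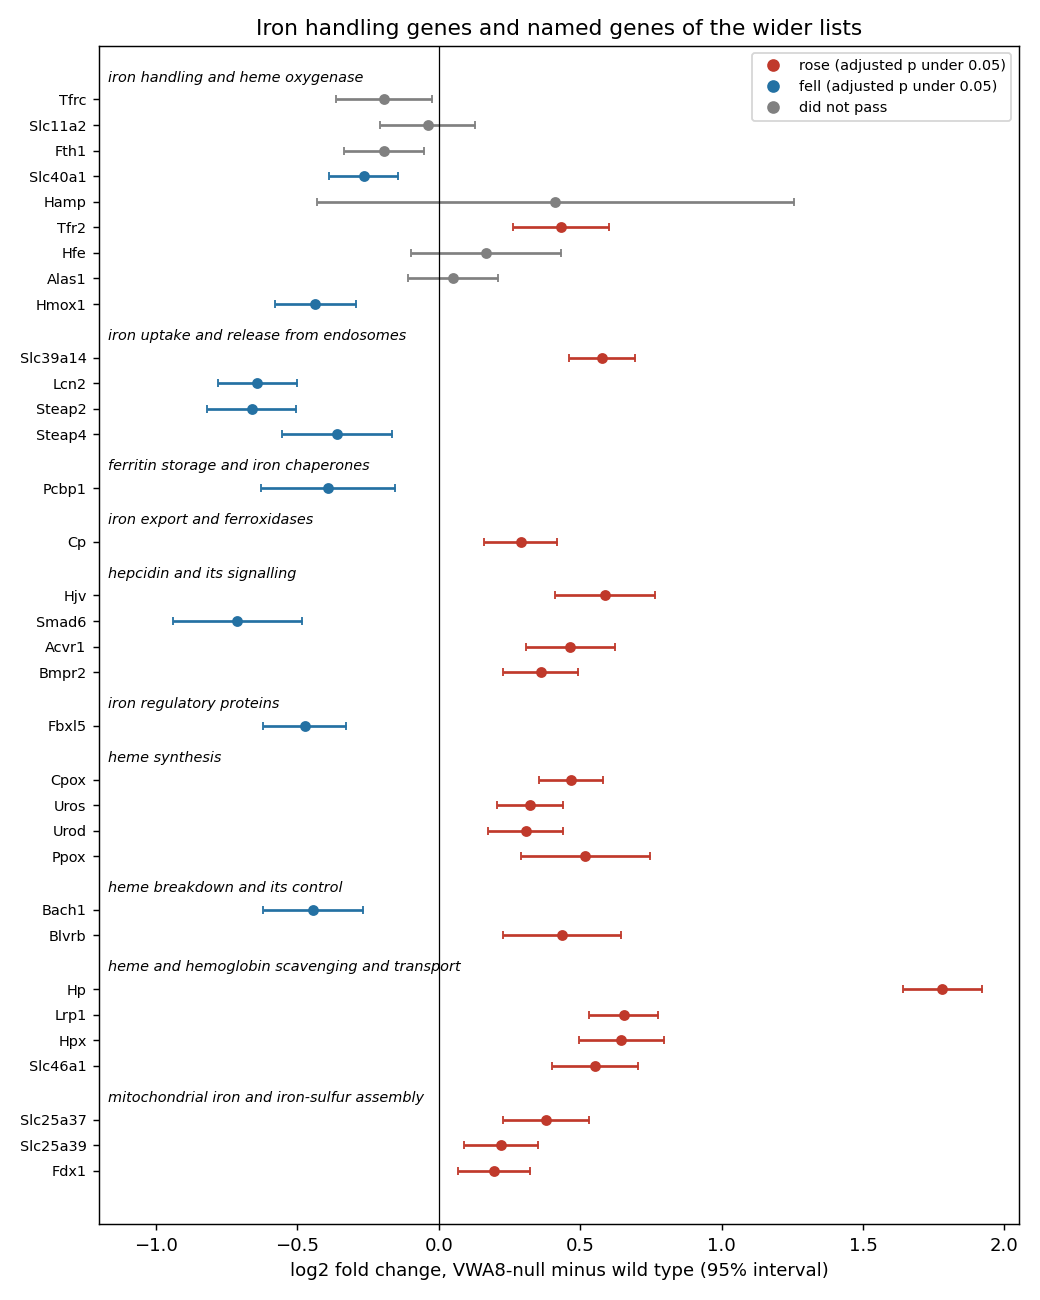
Log2 fold change, VWA8-null minus wild type, with its 95% interval for the 9 measured genes (top block) and for the up to 4 named genes of each wider list with the smallest adjusted p that passed, 4 arrays per genotype. Red marks genes that rose, blue genes that fell and grey genes that did not pass; Hamp has the widest interval, from -0.43 to 1.26.

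In the list of iron uptake and release from endosomes, 2 of 13 measured genes rose, 4 fell and 7 did not pass. The share that passed was thus 46.2%, against 20.9% of all genes, dim ones included. Slc39a14, also called ZIP14, brings iron that is not bound to transferrin into hepatocytes. It read 8.96, 8.93, 8.95 and 8.91 in VWA8-null cells and 8.33, 8.42, 8.33 and 8.36 in wild-type cells, a log2 fold change of 0.58 ± 0.052 (limma adjusted p = 7.84e-05), which with Tfr2 makes up the rises. Steap2, a metalloreductase, fell by 0.66, and Lcn2, which binds iron-carrying siderophores, fell by 0.64. Steap4, another reductase, was dim and stood at -0.36, and Mcoln1, a lysosomal channel named after its value was seen, at -0.21. After subtracting the median change of their neighbours Steap4 and Mcoln1 no longer passed, at -0.22 and 0.0067. Mcoln1 also lost the call without VWA8-null replicate 1, 2 or 4 and without wild-type replicate 1, 2 or 3, at adjusted p of 0.0854 to 0.111. Steap3, the endosomal ferrireductase of red cell precursors, stood at 0.04 ± 0.105 (adjusted p = 0.843).

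Around ferritin, 1 of 5 measured genes fell and none rose, a share of 20.0% that lies near the 20.9% of all genes. Pcbp1, an iron chaperone that delivers iron to ferritin, was at -0.39 ± 0.104 (adjusted p = 0.0272), a call lost without VWA8-null replicate 3 and without wild-type replicate 1 or 3, when the adjusted p was 0.0533, 0.0676 and 0.0561. Ncoa4, the receptor that takes ferritin to lysosomes, read between 7.08 and 7.17 on all arrays and was at 0.03 ± 0.052 (adjusted p = 0.754). Among 4 measured export genes 1 rose and 1, Slc40a1, fell (50%, against 20.9% of all genes, dim ones included). Cp, which encodes ceruloplasmin, the plasma ferroxidase that works with ferroportin, rose by 0.29 ± 0.057 (adjusted p = 0.00640). Subtracting the neighbours' median left Cp at 0.14 (adjusted p = 0.129). The ferroxidases Heph and Hephl1 were dim and did not pass.

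The iron regulatory proteins themselves did not pass. Aco1, also called IRP1, stood at -0.07 ± 0.056 (adjusted p = 0.483) and Ireb2, also called IRP2, at -0.07 ± 0.056 (adjusted p = 0.440). Fbxl5, the iron-binding ubiquitin ligase subunit that marks IRP2 for destruction, fell. It read 8.14, 8.13, 7.96 and 8.20 in VWA8-null cells and 8.58, 8.60, 8.55 and 8.59 in wild-type cells, a log2 fold change of -0.47 ± 0.065 (limma adjusted p = 0.000877). Every VWA8-null array lay below every wild-type array, as in 13.2% of all genes.

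Alas1, the first and rate-limiting enzyme of heme synthesis in liver, read 8.20, 8.29, 8.31 and 8.23 in VWA8-null cells and 8.30, 8.06, 8.29 and 8.16 in wild-type cells. The groups overlapped. The difference was 0.05 ± 0.071 (SE; 95% interval -0.11 to 0.21; limma adjusted p = 0.697).

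Hmox1, the inducible heme oxygenase, read 7.23, 7.23, 7.38 and 7.16 in VWA8-null cells and 7.70, 7.63, 7.69 and 7.72 in wild-type cells. The groups were clearly apart, with the highest VWA8-null array below the lowest wild-type array, as in 13.2% of all genes. The means were 7.25 ± 0.090 in VWA8-null cells and 7.68 ± 0.037 in wild-type cells (SD, n = 4 each), a log2 fold change of -0.44 ± 0.062 (SE; 95% interval -0.58 to -0.29; limma adjusted p = 0.00113). The log2 ratio of Hmox1 to Alas1 within arrays differed by -0.49 ± 0.058, with no overlap of the groups (exact permutation p = 0.0286, the smallest possible, adjusted 0.0714 over the 5 ratios).

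Of 7 measured enzymes of heme synthesis, 5 rose (71.4%, against 10.4% of all genes, dim ones included) and none fell, with a median of 0.32. The 5 lie in the middle of the pathway. Cpox, coproporphyrinogen oxidase, read 7.69, 7.68, 7.73 and 7.72 in VWA8-null cells and 7.21, 7.24, 7.27 and 7.24 in wild-type cells, at 0.47 ± 0.050 (limma adjusted p = 0.000218). Ppox, protoporphyrinogen oxidase, rose by 0.52 ± 0.100, Alad, which joins aminolevulinate into a pyrrole, by 0.33 ± 0.073, Uros, which closes the ring, by 0.32 ± 0.051, and Urod, which decarboxylates it, by 0.31 ± 0.058. Alad was named after its value was seen. For none of the 5 did the groups overlap, and 12.9% of all genes had every VWA8-null array above every wild-type array. The enzymes at the ends of the pathway, Alas1 and Fech (ferrochelatase, at -0.06 ± 0.057, adjusted p = 0.556), did not pass. Alas2, the erythroid form, was found only in probe sets annotated to several genes.

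**Figure D4:**
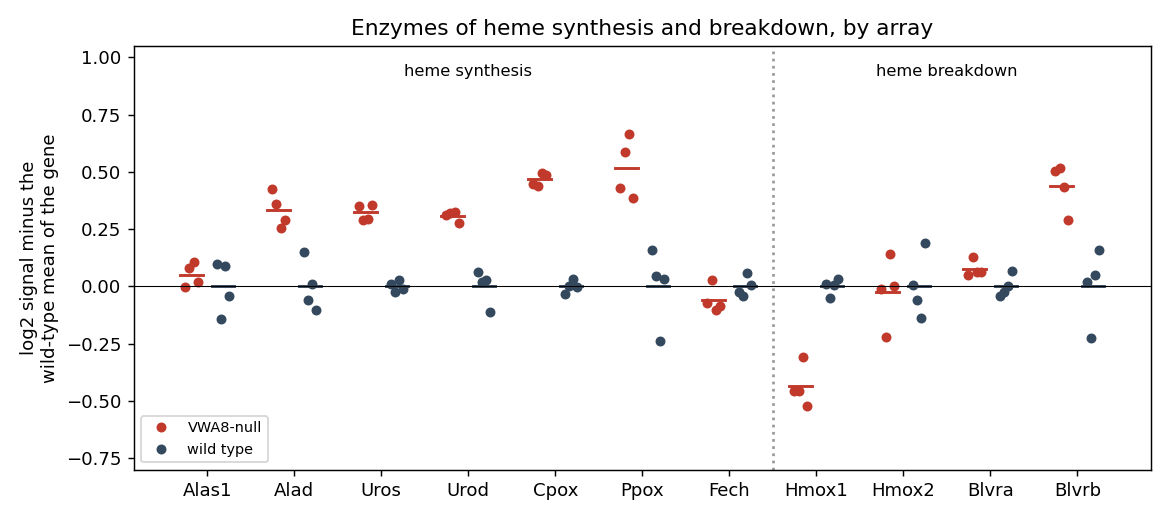
Log2 signal of each array minus the wild-type mean of the same gene for the measured enzymes of heme synthesis, in pathway order, and of heme breakdown; VWA8-null arrays are on the left and wild-type arrays on the right of each gene, and bars mark group means of 4 arrays. Alad, Uros, Urod, Cpox, Ppox and Blvrb lie higher in VWA8-null cells, Hmox1 lies lower, and Alas1, Fech, Hmox2 and Blvra did not pass the test.

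Among 6 measured genes of heme breakdown and its control, 1 rose and 2 fell, where 10.4% of all genes rose and 10.4% fell. Hmox2, the constitutive heme oxygenase, was at -0.02 ± 0.097 (adjusted p = 0.910). Blvrb, a biliverdin reductase, rose by 0.44 ± 0.092 (adjusted p = 0.00917). Bach1, the heme-binding repressor of Hmox1, read 6.74, 6.94, 6.65 and 6.73 in VWA8-null cells and 7.28, 7.13, 7.14 and 7.29 in wild-type cells, and fell by 0.44 ± 0.078 (adjusted p = 0.00350). The transcript of the activator of Hmox1, Nfe2l2, which encodes NRF2, averaged 10.14 in VWA8-null cells and 10.15 in wild-type cells and did not pass (adjusted p = 0.966).

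Of 10 genes that scavenge or carry heme and hemoglobin, 4 rose and 1 fell, 5 of 10 against 20.9% of all genes, dim ones included. Hp, which encodes haptoglobin, the binder of free hemoglobin, averaged 11.54 ± 0.048 in VWA8-null cells and 9.76 ± 0.083 in wild-type cells (SD, n = 4 each), a 3.44-fold difference. Hpx, which encodes hemopexin, the plasma carrier of free heme, rose by 0.65 ± 0.066, and Lrp1, its receptor, by 0.65 ± 0.054. Slc46a1, a folate transporter that also carries heme, rose by 0.55 ± 0.067. The gene that fell, named after its value was seen, was Abcg2, an exporter of porphyrins and drugs, at -0.54 ± 0.085. Hp and Hpx are secreted by hepatocytes, and the rise of the 6 hepatocyte markers stands beside theirs.

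For mitochondrial iron and iron-sulfur assembly, 3 of 15 measured genes rose and none fell, 20.0% against 20.9% of all genes. Slc25a37, also called mitoferrin 1, rose by 0.38 ± 0.067 (adjusted p = 0.00350). Slc25a39, a glutathione carrier, at 0.22 ± 0.058, and Fdx1, a ferredoxin, at 0.20 ± 0.056, passed at adjusted p of 0.0250 and 0.0375 and lost the call in 8 and 10 of 17 alternatives. Leaving out VWA8-null replicate 1, 2 or 3 or wild-type replicate 2, 3 or 4 left 1 rise in the list. Over all 9 lists together, 34 of 86 distinct measured genes passed (39.5%), 20 as rises and 14 as falls, and their median log2 fold change was 0.01.

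The genes whose centred profile over the 8 arrays lay nearest were Uqcrq and Mir192 for Tfr2 (Euclidean distance 0.117 and 0.142), Rac1 and Atg7 for Slc40a1 (0.0767 and 0.0826) and Wsb2 and Jpt1 for Hmox1 (0.0824 and 0.0849). They were taken from 12085 genes of above-median signal, and the arrays fall into 2 genotypes, so profiles that are alike share a difference between genotypes of like size.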

How the data were processed

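Per the labels' protocols, biotin-labelled RNA of 8 cultures was read on Affymetrix arrays for mouse. The authors deposited 1 log2 signal per probe set and array; the scale was read from the values, which run from 0.44 to 13.55, and how they were background-corrected, normalized and summarised was not given in the sources used here. No normalization was added. Of 41345 probe sets, 23521 had 1 gene symbol, 1814 several and 16010 none. Each of 22180 genes was read from its single-symbol probe set of highest mean over all 8 arrays. Genotypes were compared with limma 3.58.1 in R 4.3.3, two-sided and with a single term for genotype, with Benjamini-Hochberg adjustment over all genes and a threshold of 0.05. Ratios of genes within arrays were tested by exact permutation. Gene order and chromosomes came from RefSeq (GRCm38.p6), which 21994 genes matched.

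The 10 genes and the 9 wider lists were chosen with earlier results of these data known. Named genes were the 10 genes, up to 4 others per list with the smallest adjusted p past the threshold, a set of central iron and heme genes whatever their values, and the 2 nearest profiles of each of the 10 that passed. Alternatives were quantile normalization, centring on array medians, robust variances with an intensity trend, weights per array, the replicate number as a block, dropping the dimmest 25% or 50% of probe sets, averaging a gene's probe sets, subtracting the median change of 30 neighbouring genes on each side, and leaving out each array. The neighbours' median was subtracted as a fixed value, so p-values after that step leave out its error. The labels describe separate cultures, and p-values measure only the spread between them. Same-numbered arrays of the 2 genotypes correlated between -0.002 and 0.06 in their deviations from the group means, so the numbers were not taken to pair cultures. The fit was tested on simulated data with known changes. Promoters were aligned with Biopython 1.88, and figures drawn with matplotlib 3.10.9 (Python 3.11.15).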

Additional observations from a re-analysis of the deposited data

Results flagged for a closer look

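Hfe in wild-type replicate 2 read 5.51, while the other 3 wild-type arrays lay between 5.87 and 5.95. Its gap to the nearest array, divided by the range of the group, was 0.832, just past the critical value of Dixon's test for 4 samples. Over the 18 groups checked, 2 for each of 9 genes, this was the only one past the limit, and chance alone flags about 1 group in 20. Without that array the log2 fold change of Hfe was 0.07 (adjusted p = 0.713), against 0.17 with it, and it passed in neither.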

How the results depend on the processing

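The rise of Tfr2 and the falls of Slc40a1 and Hmox1 passed the threshold in all 17 alternatives, with log2 fold changes of 0.40 to 0.58, -0.64 to -0.25 and -0.53 to -0.41. The largest value of each came from subtracting the change of neighbouring genes. Slc11a2, Hfe and Alas1 passed in none. Averaging a gene's probe sets could not change the values of any of the 9 measured genes, since each had 1 probe set. Among listed genes that had passed, Mcoln1 changed sign, to 0.0067, when the change of its neighbours was subtracted. Some genes that had not passed also changed sign with this subtraction, among them Slc11a2, to 0.02. Fth1 stayed at -0.19 and passed with the intensity trend and without the dimmest 25% or 50% of probe sets, and Tfrc stayed at -0.19 and passed without the dimmest 50%, where fewer genes were tested for the filters. Leaving out single arrays moved Hamp between 0.16 and 0.80, and it passed without VWA8-null replicate 1. With quantile normalization 3 ratios passed in the exact permutation tests, each at an adjusted p of 0.0476. They were Tfr2 to Tfrc at 0.63, Slc11a2 to Slc40a1 at 0.24 and Hmox1 to Alas1 at -0.47. Slc11a2 to Slc40a1 there also reached the smallest p allowed, which lowered the adjusted p of all 3. The differences of Tfr2 to Tfrc and Hmox1 to Alas1 were 0.62 and -0.49 in the main test, so these calls do not reflect larger differences. With the replicate number as a block, 3717 genes passed in place of 4626, 31 of the 86 listed genes in place of 34 (mitochondrial list 1 rise in place of 3, Mcoln1 lost at 0.0809), and no call of the 9 genes changed. The listed genes that passed ran from 30 to 39 over all alternatives, and the heme synthesis count stayed at 5 rises. Without a measure of background, dim signals such as Hamp, Steap4, Heph and wild-type Hjv cannot be told from no expression.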
